A study of Mus musculus with 8 samples.

Results

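The genes described here encode the proteins that carry out and regulate pre-mRNA splicing and that package nascent transcripts. They were taken from 8 single-colour oligonucleotide arrays of mouse follicular B cells. The members are the genes whose only annotated symbol begins with Srsf and a digit, Hnrnp, Snrp, Sf3a, Sf3b or U2af, which gave 44 of 8251 genes, read from 61 probe sets. They comprise 16 hnRNP genes, 9 SR protein genes, 8 genes named for small nuclear ribonucleoproteins (snRNPs), 8 subunits of the SF3 complexes and 3 U2AF genes. Each gene is given by its brightest probe set over the 8 arrays, and all 44 of these were bright enough to be tested. Among them is Snrp1c-ps2, which the reference annotates as a pseudogene.

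All cells carried an antigen receptor against hen egg lysozyme (HEL). It was either an IgM or the chimera IgMG, whose extracellular spacer, membrane-spanning part and cytoplasmic part come from IgG1. The 4 groups of 2 arrays were IgMG with HEL, IgMG unstimulated, IgM with HEL and IgM unstimulated. An array pooled sorted cells of 6 or 8 mice in the first of these groups, 5 or 6 in the second and 2 or 4 in each IgM group, so receptor and number of mice cannot be told apart. The labels state neither mouse age and strain nor how the receptor was introduced or how long HEL was applied.

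Splicing removes introns in a large complex of small nuclear RNAs and proteins. The U2AF heterodimer reads the 3′ splice site, and the SF3a and SF3b complexes then help the U2 particle to hold the branch site. Sm proteins form a ring on the RNA of most of the particles, U2 included. SR proteins mostly bind exons and promote their inclusion, while hnRNP proteins coat the transcript and often oppose inclusion. In activated lymphocytes the balance between them shapes products such as the isoforms of CD45 and the choice between membrane and secreted immunoglobulin. In pooled RNA, fewer cells with a transcript and less transcript per cell cannot be told apart.

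Signals are arbitrary units on a linear scale and are given for each array. Changes are on the scale of log2(signal + 16) with the standard error of the fit. A gene rose or fell where limma gave an adjusted p under 0.05 over all 7453 tested probe sets. The p-values measure only the spread between pools of sorted cells, and whether arrays shared mice is not given. Median signal per array ranged from 40.7 to 47.75. Of 10 B cell markers 9 were measured, with summed signals of 23960 to 27950 in IgMG cells with HEL, 26730 to 29120 in unstimulated IgMG cells, 21610 to 23850 in IgM cells with HEL and 28840 to 30680 in unstimulated IgM cells. Both IgM arrays with HEL lay below both unstimulated IgM arrays in this sum, and its part in the results was not tested. None of the 9 was near 0, but Cr2 was dim, with signals of 45.6 to 112.6. Of 14 myeloid markers 13 were measured, and their summed signal was 3984 to 5022 in IgMG cells with HEL, 1405 and 13550 in unstimulated IgMG cells, 1261 to 3748 in IgM cells with HEL and 2444 to 4105 in unstimulated IgM cells. The second unstimulated IgMG array thus stood apart, also in 6 measured NK cell markers of 10 (summed signal 2118, against 195.3 to 520.3 on the other arrays). Erythroid markers, 6 of 9 measured, were bright on every array, and their part in the results was not tested. Their sum was 17320 to 21270 in IgMG cells with HEL and 13160 to 19710 in unstimulated IgMG cells. It was 14400 to 16930 in IgM cells with HEL and 15150 to 17580 in unstimulated IgM cells. Most came from Hba-a1, at 9594.8 or more on each array. A measure of RNA integrity, the ratio of 5′ to 3′ probe set signals of Gapdh, was 0.755 on the second IgM array with HEL and 0.14 to 0.395 on the others.

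The first question was what antigen did to these genes over both receptors. Of the 44 members, 8 rose with HEL and 0 fell, while 9.18% of all tested probe sets rose and 11% fell. Those that rose were Hnrnpa1, Hnrnpa2b1, Hnrnpab, Hnrnph2, Hnrnpm, Hnrnpu, Srsf6 and Sf3b3. By class, 6 of 16 hnRNP genes, 1 of 9 SR protein genes and 1 of 8 SF3 genes rose, and 0 of 8 snRNP and 0 of 3 U2AF genes did. The median log2 change of the members was 0.16, and 33 of 44 were positive, beside a median of -0.04 and 3437 of 7453 positive over all tested probe sets. The changes spanned -1.10 to 0.66, with the low end at Hnrnpl, whose standard error was 0.67. In 42 of 44 members the 95% interval lay within a 2-fold change either way on the scale of log2(signal + 16).

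**Figure D1:**
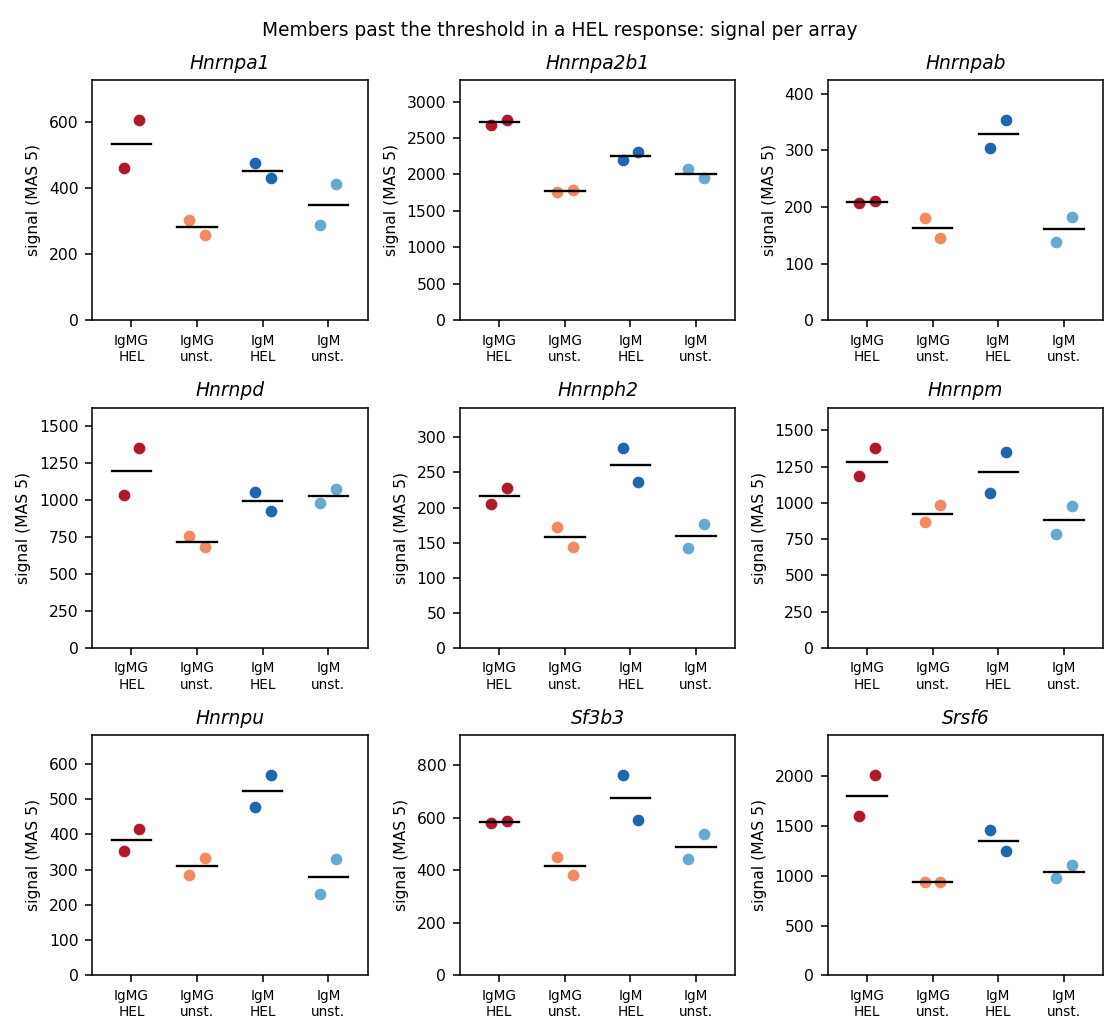
Signal per array on a linear axis from 0 (MAS 5 units) for the 9 members that passed the threshold in the IgM, the IgMG or the mean response to HEL; points are arrays and bars the means of 2. In all panels except Hnrnpd the 4 arrays with HEL lie above the 4 unstimulated ones, which the choice by these tests made likely.

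Srsf6, an SR protein that regulates exon inclusion, had the smallest p of the members. Its signal was 1597.7 and 2009.8 in IgMG cells with HEL, against 942.4 and 933.8 in unstimulated IgMG cells, and 1459.7 and 1249.9 in IgM cells with HEL, against 974.5 and 1110.4 in unstimulated IgM cells. Every array with HEL lay above every unstimulated array. The genes that rose were chosen by a HEL test on these arrays, which made such separation likely, so it adds no support. The mean change was 0.65 ± 0.12 (adjusted p = 0.00566), and it passed the threshold under each of the 20 alternatives in processing that were run. Each other member that rose missed the threshold under some of them.

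Hnrnpa2b1 and Hnrnpa1 encode related proteins that bind exonic silencers and, in the case of Hnrnpa2b1, also guide RNA sorting. Hnrnpa2b1 had signals of 2684.7 and 2744.7 in IgMG cells with HEL, against 1756.0 and 1789.6 unstimulated, and of 2196.3 and 2302.2 in IgM cells with HEL, against 2071.4 and 1946.7 unstimulated. Replicates of this gene were close together and the groups did not overlap. Its mean change was 0.39 ± 0.09 (adjusted p = 0.0149), but a dimmer second probe set of the gene had -0.02 ± 0.15, and the average of both had 0.18 (adjusted p = 0.248). Hnrnpa1 had signals of 461.9 and 606.5 in IgMG cells with HEL, against 304.8 and 257.6 unstimulated, and of 476.5 and 430.7 in IgM cells with HEL, against 289.5 and 411.7 unstimulated. Here too the arrays with HEL were all above the others, with a mean change of 0.63 ± 0.15 (adjusted p = 0.0206).

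Hnrnpab, which binds single-stranded nucleic acid and AU-rich RNA, had 206.4 and 211.4 in IgMG cells with HEL, against 181.2 and 145.4 unstimulated, and 304.7 and 353.3 in IgM cells with HEL, against 137.9 and 182.7 unstimulated. The highest arrays were both of the IgM cells with HEL. Hnrnpu, a nuclear scaffold protein that binds RNA and chromatin, was likewise highest in both of these: it had 353.1 and 414.8 in IgMG cells with HEL, against 285.1 and 333.9 unstimulated, and 478.4 and 567.7 in IgM cells with HEL, against 229.8 and 329.7 unstimulated. The mean changes were 0.66 ± 0.14 for Hnrnpab and 0.59 ± 0.15 for Hnrnpu (adjusted p = 0.0122 and 0.0234).

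Hnrnph2, which binds runs of G, had 204.9 and 228.3 in IgMG cells with HEL, against 171.9 and 143.0 unstimulated, and 285.1 and 236.4 in IgM cells with HEL, against 142.8 and 176.3 unstimulated. The lowest array with HEL lay above the highest unstimulated one, and the mean change passed (adjusted p = 0.0240). Its paralogue Hnrnph1 did not pass, with a mean change of 0.15 ± 0.09 beside 0.54 ± 0.14 for Hnrnph2. Hnrnpm, which mostly silences exons, had 1184.0 and 1378.8 in IgMG cells with HEL, against 864.6 and 985.7 unstimulated, and 1068.2 and 1352.5 in IgM cells with HEL, against 783.1 and 979.9 unstimulated. Sf3b3, a scaffold subunit of SF3b, had 581.9 and 587.9 in IgMG cells with HEL, against 450.5 and 383.2 unstimulated, and 761.8 and 591.5 in IgM cells with HEL, against 444.1 and 537.2 unstimulated. In both genes all arrays with HEL were the higher ones, and the estimates in the 2 receptors were close. Hnrnpm had 0.46 ± 0.18 in IgMG and 0.45 ± 0.18 in IgM cells, a difference of 0.01 ± 0.26, and Sf3b3 had 0.48 ± 0.18 and 0.45 ± 0.18, a difference of 0.03 ± 0.26. Neither passed within a receptor, while their mean changes of 0.46 ± 0.13 each did (adjusted p = 0.0375 and 0.0365).

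Srsf2, an SR protein that controls its own transcript, lay just outside the threshold with a mean change of 0.51 ± 0.16 (adjusted p = 0.0504). Its signals were 3915.3 and 4660.7 in IgMG cells with HEL, against 3404.2 and 2130.0 unstimulated, and 4388.1 and 3716.2 in IgM cells with HEL, against 2836.5 and 3474.8 unstimulated. All arrays with HEL lay above the unstimulated ones, and a second, dimmer probe set of the gene passed at 0.68 ± 0.12 (adjusted p = 0.00575). Over all members, the 4 arrays with HEL lay above the 4 unstimulated arrays in 9 and below them in 1, Hnrnpul2, which was chosen for this after its values were seen. Of all tested probe sets 10.8% lay wholly above and 12.9% wholly below.

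The count of 8 became 2 without the first unstimulated IgM array, 3 if the first IgMG array with HEL was dropped and 1 if the second was. It was 10 with the Gapdh ratio in the fit and 7, of which 5 rose and 2 fell, without both arrays that stand apart.

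Most core spliceosome members did not pass in the mean response. In the SF3 complexes, Sf3b1, the subunit that contacts the branch site, had 0.28 ± 0.22, and its second probe set had the opposite sign at -0.25 ± 0.12. Sf3a1 and Sf3a3 had 0.01 ± 0.16 and 0.05 ± 0.12. Among the Sm proteins, Snrpb had 0.39 ± 0.14 (adjusted p = 0.0792), Snrpg 0.18 ± 0.10, Snrpe 0.03 ± 0.13 and Snrpd3 -0.42 ± 0.17 (adjusted p = 0.114). U2af2, the U2AF subunit that binds the polypyrimidine tract, had 0.26 ± 0.09 (adjusted p = 0.0865), and U2af1, which reads the AG at the splice site, had 0.02 ± 0.20.

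Other SR and hnRNP members also missed the threshold. Srsf5 had a mean change of 0.12 ± 0.10, Srsf9 0.19 ± 0.11, Srsf10 0.19 ± 0.14, Srsf11 0.02 ± 0.13 and Srsf4 0.20 ± 0.15. Srsf1, a prototype SR protein, had -0.07 ± 0.11 on its brightest probe set, but 0.49 ± 0.19 and 0.87 ± 0.36 on a pair of dimmer ones, none of which passed. Hnrnpk, which binds C-rich RNA, had 0.18 ± 0.12, Hnrnpc, a core packaging protein, 0.12 ± 0.15, and Hnrnpdl 0.31 ± 0.10 (adjusted p = 0.0674). Of 12 other tested probe sets of member genes, 6 had a mean change of opposite sign to the brightest one, in 5 genes.

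Hnrnpl and Hnrnpll, both repressors of variable CD45 exons in T cells, could not be read closely. Hnrnpl had 123.9 and 126.2 in IgMG cells with HEL, against 791.2 and 55.0 unstimulated, and 161.8 and 42.1 in IgM cells with HEL, against 330.7 and 199.7 unstimulated. The unstimulated IgMG arrays lay furthest apart and enclosed both IgMG arrays with HEL, while in IgM cells both arrays with HEL lay below the unstimulated ones. The mean change of -1.10 ± 0.67 had a 95% interval of -2.61 to 0.42. Hnrnpll was dim, with signals of 13.2 to 48.2 over the 8 arrays and a mean change of 0.12 ± 0.28.

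Within IgM cells, antigen raised Hnrnpab by 0.98 ± 0.20 (adjusted p = 0.0139) and Hnrnpu by 0.88 ± 0.21 (adjusted p = 0.0262). By the brightest probe sets these were 2 of 44 members, and 0 fell, while 6.7% of all tested probe sets rose and 7.27% fell. A dimmer probe set of Srsf2 rose by 0.77 ± 0.17 (adjusted p = 0.0208). A dimmer probe set of Hnrnpul2 fell, with -0.75 ± 0.21 (adjusted p = 0.0489). On the log2 scale of the fit, where a constant is added to each signal, no member was called with a change of at least 2-fold. On that scale 7.72% of tested probe sets were. On the linear scale Hnrnpab did exceed 2-fold, with mean signals of 329 in IgM cells with HEL and 160.3 in unstimulated IgM cells. The median of the members was 0.07, with 25 of 44 positive, and over all tested probe sets it was -0.02, with 3585 of 7453 positive. Hnrnph2 came next at 0.66 ± 0.19 (adjusted p = 0.0554). The count became 0 without the first unstimulated or the second HEL array of IgM cells, 4 without the first HEL array of IgM cells and 1 without the second HEL array of IgMG cells.

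Within IgMG cells, Srsf6 rose by 0.92 ± 0.16 (adjusted p = 0.0178), Hnrnpa2b1 by 0.61 ± 0.12 (adjusted p = 0.0267) and Hnrnpd by 0.71 ± 0.17 (adjusted p = 0.0489). The second probe set of Hnrnpa2b1 had 0.03 ± 0.21 here, and the average of both had 0.32 and did not pass (adjusted p = 0.232). These were 3 of 44 members, with 0 that fell, beside 3.1% and 2.29% of all tested probe sets. Again no member was called at 2-fold or more on the log2 scale of the fit, against 3.25% of tested probe sets. The median of the members was 0.21, with 33 of 44 positive, and over all tested probe sets it was -0.05, with 3346 of 7453 positive. U2af2 (0.55 ± 0.13, adjusted p = 0.05005) and Hnrnpa1 (0.88 ± 0.22, adjusted p = 0.0514) lay just outside.

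The 3 calls in IgMG cells depended on the arrays and the fit. No member passed if either IgMG array with HEL was dropped, if the fit used IgMG arrays alone or no trend, or if it held the Gapdh ratio as a term (0 in each case). The Gapdh ratio was 0.14 and 0.221 in IgMG cells with HEL and 0.237 and 0.395 in unstimulated IgMG cells, so it was lower with antigen there, and its part in the result was not tested beyond that term. With the replicate number as a block 1 member passed.

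**Figure D2:**
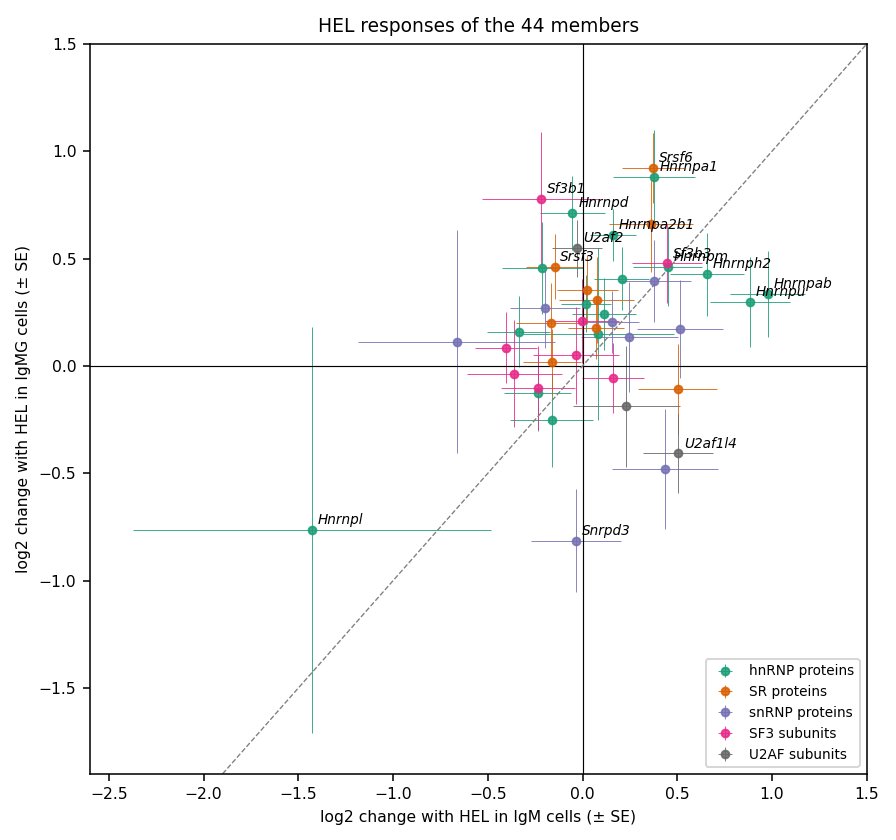
Log2 change with HEL in IgM cells (x axis) and in IgMG cells (y axis) for the 44 members, with standard errors and coloured by class; the dashed line marks equal changes. Hnrnpab and Hnrnpu lie furthest right of the members, Srsf6 and Hnrnpa1 highest, and Hnrnpl stands alone at lower left with the widest error.

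Hnrnpd encodes a protein, also called AUF1, that binds AU-rich elements and steers mRNA decay. Its signal was 1035.9 and 1353.3 in IgMG cells with HEL, against 755.3 and 680.2 in unstimulated IgMG cells, but 1052.6 and 928.5 in IgM cells with HEL, against 980.0 and 1075.0 in unstimulated IgM cells. The low arrays were both of unstimulated IgMG cells. It is also the only member whose promoter held both sequences that were looked for.

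Promoter sequences from RefSeq (GRCm38.p6) were found for 38 of the 44 members and searched over the 250 bases before the start site on both strands. The motifs were CACGTG, the E-box that Myc and Max can bind, and CCGGAAG, a core that ETS family factors can bind. CCGGAAG stood in 13 of 38 members (34.2%), in 13.6% of 6573 genes of the array with a promoter and in 7.83% of all genes of the table. CACGTG stood in 1 of 38 members (2.63%), in 9.93% of the genes of the array and in 6.86% of all genes. Of the 9 members with a call in a HEL response, all with a promoter in the table, 2 held CCGGAAG, Hnrnpd and Sf3b3, and 11 of the other 29 did. The stretches of these promoters that hold a motif are shown, since both genes passed a HEL test and carry the motif common in the class. They are chr5:99978939-99979156 for Hnrnpd and chr8:110846986-110847053 for Sf3b3, both on the minus strand and read 5′ to 3′ toward the gene. Capitals mark the motifs, of which CTTCCGG is CCGGAAG on the other strand.
Hnrnpd: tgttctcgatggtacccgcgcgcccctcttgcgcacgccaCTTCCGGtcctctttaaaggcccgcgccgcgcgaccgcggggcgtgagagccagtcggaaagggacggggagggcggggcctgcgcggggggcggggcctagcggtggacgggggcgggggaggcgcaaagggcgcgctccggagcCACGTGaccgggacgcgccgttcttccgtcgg
Sf3b3: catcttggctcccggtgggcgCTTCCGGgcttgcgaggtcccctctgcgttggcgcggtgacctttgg
In Hnrnpd the motifs begin 178 and 32 bases before the start site, and in Sf3b3 229 bases before it. A match describes these letters and does not show a site in use.

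The comparison named in the study's design was whether antigen responses differ between the receptors. No member passed: limma called 0 of 44 and 0% of all tested probe sets, and 9 members and 750 of 7453 probe sets had an unadjusted p under 0.05. The median difference, IgMG minus IgM, was 0.16 over the members and -0.02 over all tested probe sets. It was positive in 32 of 44 members and in 3627 of 7453 tested probe sets. The members' median was 0.23 if the first unstimulated IgMG array was dropped, 0.09 if the second was, and 0.07 with the Gapdh ratio in the fit. In 21 of 44 members the 95% interval of the difference lay within 2-fold either way. For the remaining members the intervals include a larger difference.

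U2af1l4, a paralogue of U2af1 that can take its place beside U2af2, had the smallest p. Its signal was 127.8 and 123.8 in IgMG cells with HEL, against 183.8 and 161.1 in unstimulated IgMG cells, and 191.4 and 183.0 in IgM cells with HEL, against 142.6 and 113.2 in unstimulated IgM cells. The arrays with HEL lay below the unstimulated ones in IgMG cells and above them in IgM cells. Such opposite separation was seen in 3 of 44 members, U2af1l4, Srsf3 and Hnrnpr, and in 5.02% of all tested probe sets. The members' share is thus close to that of all tested probe sets. The difference of responses was -0.91 ± 0.26 with a 95% interval of -1.51 to -0.32, an unadjusted p = 0.00695 and an adjusted p = 0.414 in limma.

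U2af2 ran the other way. It had 3744.0 and 3581.7 in IgMG cells with HEL, against 2601.9 and 2402.4 in unstimulated IgMG cells, and 2869.4 and 3003.2 in IgM cells with HEL, against 3261.2 and 2749.4 in unstimulated IgM cells. The IgM groups overlapped and the IgMG groups did not, and the difference of responses was 0.58 ± 0.19 (adjusted p = 0.419).

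Srsf3, an SR protein that also aids RNA export, had 692.0 and 682.6 in IgMG cells with HEL, against 467.5 and 523.3 unstimulated, and 480.7 and 486.1 in IgM cells with HEL, against 503.3 and 573.8 unstimulated. Both IgMG arrays with HEL stood above all others. The difference of responses was 0.61 ± 0.22 (adjusted p = 0.445). A dimmer probe set of the gene had the opposite sign at -0.34 ± 0.32, and averaging both gave 0.14. Hnrnpd and Hnrnpa2b1 had differences of 0.77 ± 0.24 and 0.45 ± 0.17 (adjusted p = 0.414 and 0.465), which became 0.41 for Hnrnpd with the Gapdh ratio in the fit and 0.27 for Hnrnpa2b1 with its probe sets averaged. In the other direction Hnrnpab had -0.64 ± 0.28 and Hnrnpu -0.59 ± 0.30 (adjusted p = 0.485 and 0.510). By class, 8 of 9 SR protein genes and 12 of 16 hnRNP genes had a positive difference, as did 7 of 8 SF3, 4 of 8 snRNP and 1 of 3 U2AF genes. Over all tested probe sets it was positive in 3627 of 7453. Dimmer tested probe sets of Srsf1, Srsf2, Srsf3 and Srsf4 had the opposite sign to the brightest.

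**Figure D3:**
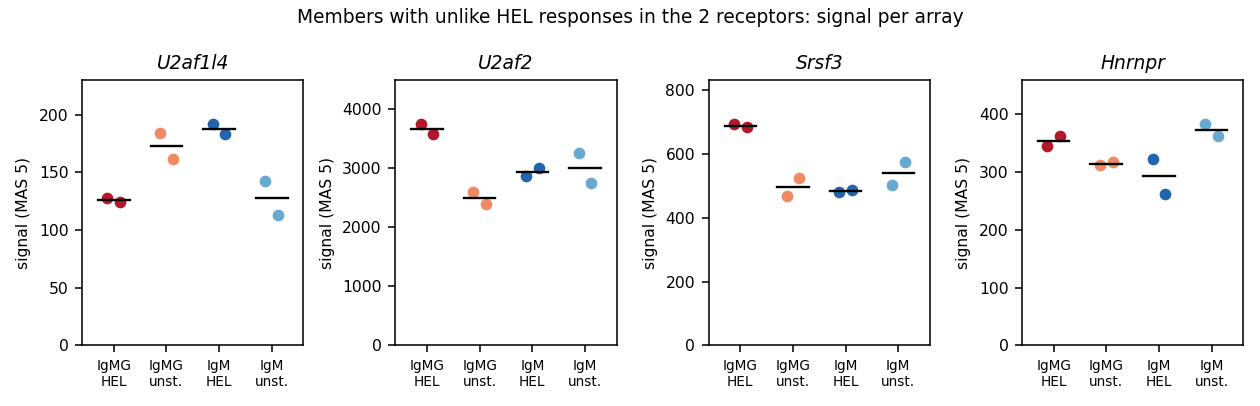
Signal per array on a linear axis from 0 (MAS 5 units) for U2af1l4, U2af2, Srsf3 and Hnrnpr, of which 3 had opposite separation in the receptors and U2af2 had the third smallest p of the difference; points are arrays and bars the means of 2. In U2af1l4 the arrays with HEL lie below the unstimulated ones in IgMG cells and above them in IgM cells, but no difference passed the threshold.

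**Figure D4:**
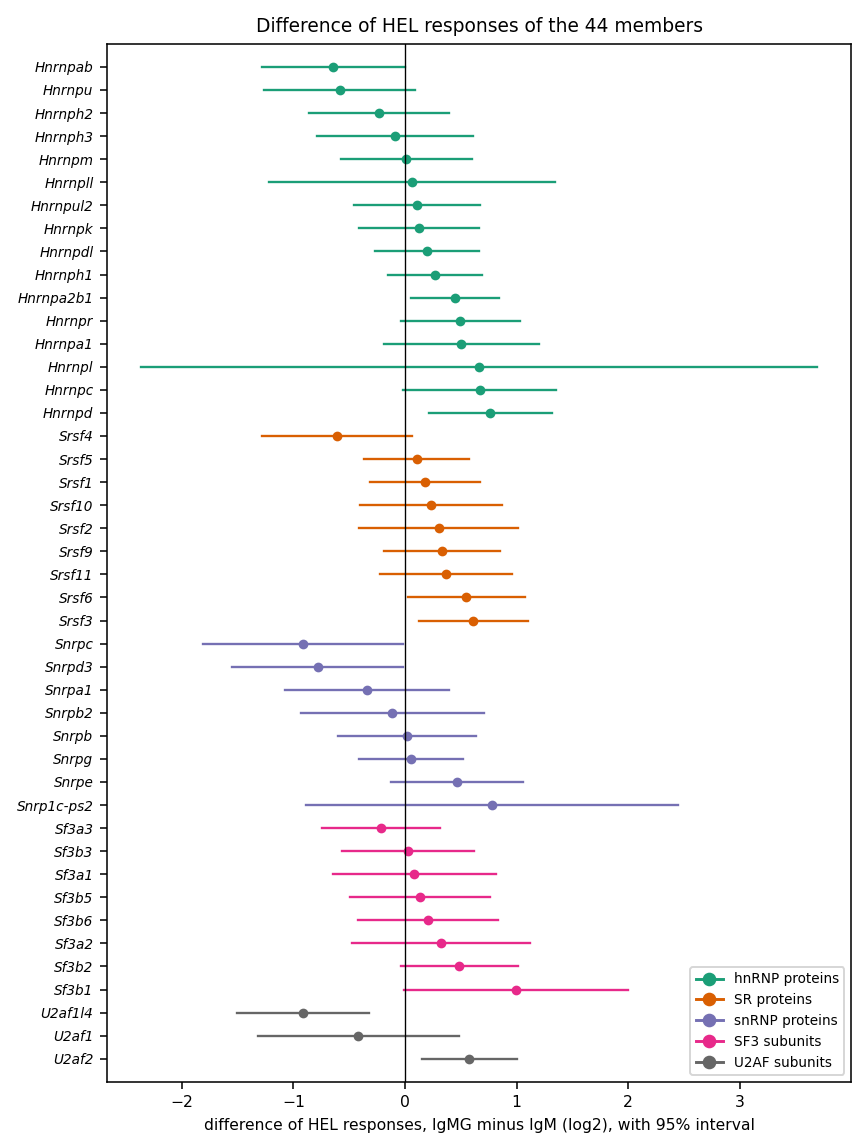
Difference of HEL responses, IgMG minus IgM, on the log2 scale for the 44 members by class, with 95% intervals (x axis). All 44 points lie between -1 and 1, and Hnrnpl has the widest interval, from -2.37 to 3.70.

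The receptors were also compared at each state. With HEL, 0 of 44 members passed between IgMG and IgM cells, beside 0.0134% of all tested probe sets (1 of 7453). In limma 6 members had an unadjusted p under 0.05, as had 1037 of 7453 tested probe sets. Srsf3 had a difference of 0.49 ± 0.15 and Srsf6 of 0.40 ± 0.16 (adjusted p = 0.246 and 0.325). The difference of Srsf3 was 0.12 with its probe sets averaged, and that of Srsf6 was 0.24 without the second IgMG array with HEL and 0.08 with the Gapdh ratio in the fit. Snrpc, a protein of the U1 particle that helps to read the 5′ splice site, had 108.6 and 162.8 in IgMG cells with HEL against 204.0 and 329.9 in IgM cells with HEL, a difference of -0.89 ± 0.28 (adjusted p = 0.250). It was -0.56 without the second IgM array with HEL and -0.44 with the Gapdh ratio. Hnrnpab had -0.61 ± 0.20 and U2af1l4 -0.52 ± 0.18 (adjusted p = 0.253 and 0.279). The groups of these 5 members did not overlap, but their choice by smallest p in this comparison made that likely, so it adds no support.

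Without HEL, 0 of 44 members and 0% of all tested probe sets passed. In limma 3 members and 344 of 7453 tested probe sets had an unadjusted p under 0.05. Sf3b1 had 421.9 and 928.1 in IgMG cells against 1318.2 and 1057.2 in IgM cells, a difference of -0.90 ± 0.31 (adjusted p = 0.992). Its second probe set had 585.0 and 706.7 in IgMG cells against 643.5 and 731.5 in IgM cells, a difference of -0.09 ± 0.17, and the average of both had -0.49. On the brightest probe set the difference was -0.34 without the first unstimulated IgMG array and -1.45 without the second. Without the second unstimulated IgMG array and the second IgM array with HEL, Sf3b1 was the 1 member that passed (adjusted p = 0.0307). The pseudogene Snrp1c-ps2 had 50.1 and 70.6 in IgMG cells against 158.1 and 251.5 in IgM cells, a difference of -1.51 ± 0.52. Hnrnpd had -0.51 ± 0.17, U2af1l4 0.39 ± 0.18 and U2af2 -0.26 ± 0.13, with adjusted p-values of 0.992, 0.995 and 0.995. Without the second unstimulated IgM array U2af1l4 had 0.25, and without the first U2af2 had -0.14.

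The further genes of RNA processing were described from 6 lists, with 126 of 181 genes measured and 120 tested. In the mean response to HEL 10 of 120 rose (8.33%) and 5 fell (4.17%), with a median of 0.10. Of all tested probe sets 9.18% rose and 11% fell, with a median of -0.04. Of 39 other spliceosome proteins 4 rose (10.3%) and 1 fell (2.56%). Prpf38a, a protein of the particle that precedes activation of the spliceosome, rose by 1.09 ± 0.14 (adjusted p = 0.00105), Lsm2 of the ring on U6 RNA by 0.78 ± 0.18, Bud31 by 0.59 ± 0.13 and Smndc1, which binds Sm proteins, by 0.52 ± 0.14. Slu7, a factor of the final splicing step, had -0.48 ± 0.14 (adjusted p = 0.0364). Prpf38a had 349.1 and 277.4 in IgMG cells with HEL, against 139.3 and 148.8 unstimulated, and 280.9 and 366.9 in IgM cells with HEL, against 134.5 and 136.8 unstimulated. The change passed in both receptors, at 1.03 ± 0.20 in IgMG and 1.15 ± 0.20 in IgM cells, with a difference of -0.12 ± 0.28. Prpf8, the scaffold of the catalytic core, had 0.11 ± 0.13.

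Of 37 tested splicing regulators 4 rose (10.8%) and 1 fell (2.7%), beside 9.18% and 11% of all tested probe sets. Syncrip, an hnRNP protein by another name, rose by 0.75 ± 0.14, the RNA helicase Dhx9 by 0.82 ± 0.15, Sfpq, a paraspeckle protein, by 0.86 ± 0.16, and Tra2b, which acts with SR proteins, by 0.66 ± 0.15. Of these, Sfpq had 1.40 ± 0.23 in IgM and 0.32 ± 0.23 in IgMG cells, a difference of -1.08 ± 0.33 (adjusted p = 0.414). Cirbp, the cold-inducible RNA-binding protein, fell by 1.08 on the log2 scale (SE 0.18, adjusted p = 0.00384). Of 10 kinases and phosphatases 0 rose and 1 fell (10%, beside 11% of all tested probe sets). This was Srpk3, a kinase of SR proteins. Srpk3 had 207.6 and 197.0 in IgMG cells with HEL, against 507.8 and 450.7 unstimulated, and 249.4 and 257.9 in IgM cells with HEL, against 514.9 and 352.0 unstimulated. Its mean change was -0.95 ± 0.14 (adjusted p = 0.00237), while Srpk1 and Clk1 of the same list had 0.14 ± 0.22 and 0.34 ± 0.16.

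Of 17 genes of 3′ end processing 0 rose and 2 fell (11.8%, beside 11% of all tested probe sets). They were the cleavage factor Cstf3 with -0.75 ± 0.14 and the endonuclease Cpsf3 with -0.76 ± 0.16 (adjusted p = 0.00701 and 0.0116). With an offset of 64 in place of 16 Cstf3 had -0.49 and still passed. Cstf2, a subunit whose level bears on the choice of immunoglobulin 3′ end, had 0.03 ± 0.13. Of 10 exon junction and export genes 1 rose (10%), Rbm8a at 0.52 ± 0.14. Rbm8a had 0.89 ± 0.19 in IgM and 0.14 ± 0.19 in IgMG cells, a difference of -0.75 ± 0.27 (adjusted p = 0.464). Among 7 snRNP assembly genes 1 rose (14.3%), Strap at 0.50 ± 0.14, beside 9.18% of all tested probe sets. In the difference of responses 0 of these 120 genes passed in limma, with 10 at an unadjusted p under 0.05, beside 750 of 7453 tested probe sets.

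**Figure D5:**
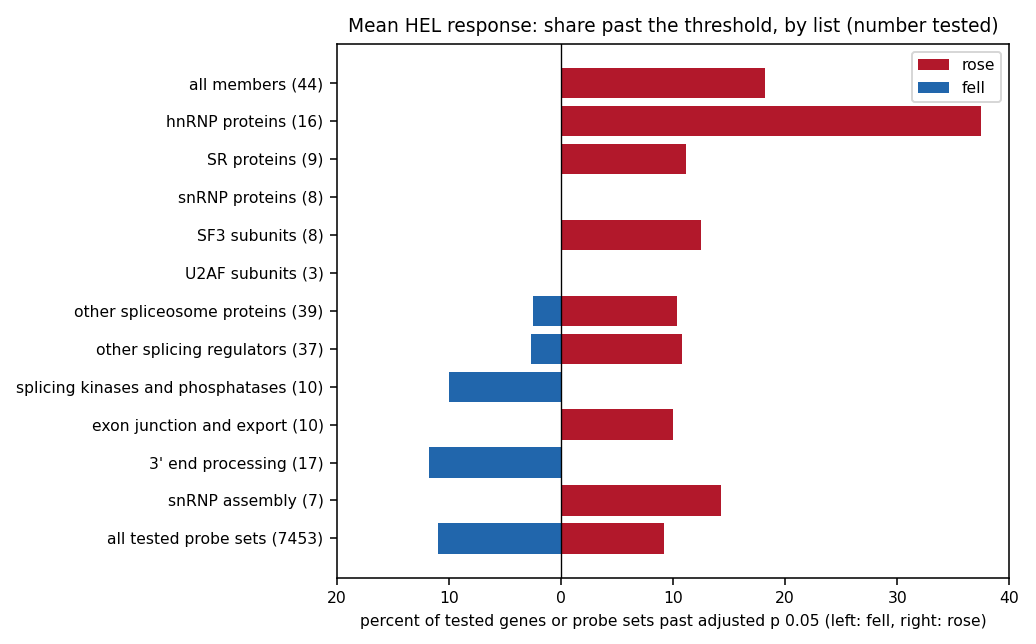
Percent of tested genes that rose (right) or fell (left) in the mean HEL response, by class of members and by further list, with the number tested in brackets and all tested probe sets at the bottom. The hnRNP genes have the highest share that rose (37.5%), while 9.18% of all tested probe sets rose and 11% fell.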

How the data were processed

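Linear intensity values of each probe set were deposited, computed with MAS5 per the submitters' processing notes. Each array's mean after trimming 2% at both ends was close to 150.1. Scaled this way, a change of total RNA would not show, and the number of arrays limits the precision. Control probe sets (66 of 12488) were left out, and the brightest 60% of the rest, 7453 of 12422, were tested as log2(signal + 16), which understates changes of dim genes. Symbols came from the platform annotation of 2016, and all 44 members matched RefSeq by gene identifier. Tests were two-sided, with group means of all 8 arrays in 1 fit of limma 3.58.1 (R 4.3.3), moderated with a trend, and Benjamini-Hochberg adjustment. They were also run on simulated data with independent normal noise for each probe set, which cannot vouch for calls on these arrays. For 2 arrays against 2, the smallest p of an exact permutation is 0.333. Groups and replicate numbers came from the sample titles. Same-numbered arrays did not deviate together (correlations of -0.161 to 0.0163 between groups over the tested probe sets), so the numbers were not taken as pairs.

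The members and lists were chosen with earlier results of these data known. Members were named if they passed in a contrast, had 1 of the 5 smallest p-values in the difference or a receptor contrast, or stood in a list of 22 always-named genes. Of these 22, Srsf7, Hnrnpf, Snrpa, Snrpd1 and Snrpn had no probe set with that single symbol, nor had Ptbp1 of the further lists, of which up to 4 called genes each were named. Of the other marker lists, T cell (8 of 11 measured) and plasma cell (4 of 5) markers had summed signals per array of 66.3 to 207 and 382.8 to 953.9. Alternatives covered the offset, scaling, filter, trend, arrays in the fit, replicate block, arrays left out, averaging of probe sets and the threshold. Crossed numbers, the Gapdh covariate and omitting both outlying arrays were chosen after seeing the data.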

Additional observations from a re-analysis of the deposited data

Results flagged for a closer look

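In 3 of 44 members, and in 5.02% of all tested probe sets, both arrays with HEL lay on one side of the unstimulated arrays in IgMG cells and on the opposite side in IgM cells. This share of the members is close to that of all tested probe sets. U2af1l4 had a difference of responses of -0.91 ± 0.26, from -0.41 ± 0.18 in IgMG and 0.51 ± 0.18 in IgM cells, neither past the threshold. Srsf3 had a difference of 0.61 ± 0.22, from 0.46 ± 0.15 in IgMG and -0.15 ± 0.15 in IgM cells. Its dimmer probe set did not share this pattern, with 0.25 ± 0.23 in IgMG and 0.59 ± 0.23 in IgM cells, a difference of -0.34 ± 0.32. Hnrnpr, an hnRNP protein of nuclear transcripts, had 344.8 and 362.0 in IgMG cells with HEL against 312.3 and 317.0 unstimulated, and 323.1 and 262.4 in IgM cells with HEL against 382.4 and 362.3 unstimulated, a difference of 0.50 ± 0.23. In limma the difference itself did not pass for any of them (adjusted p = 0.414, 0.445 and 0.485).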

How the results depend on the processing

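With 2 arrays a group, the counts of members called moved with single arrays. Leaving out 1 array at a time, 0 to 4 members passed in IgM cells, 0 to 3 in IgMG cells and 1 to 8 in the mean response. In IgM cells 4 passed with a gene's probe sets averaged and 0 at an adjusted p under 0.01. In IgMG cells 5 passed with each array centred on its median, with the brightest 40% of probe sets, and with probe sets averaged. There 1 passed with no filter and 1 with the replicate block, and 0 at 0.01, with no trend, with IgMG arrays alone and with the Gapdh ratio as covariate. In the mean response 5 passed with no trend and 1 at 0.01. Without HEL, 1 member passed as lower in IgMG cells when both arrays that stand apart were left out. A stricter threshold lowers the counts by construction, and otherwise the cause was not tested. The replicate block changed no other count by over 1.5 times, and crossed numbers gave 0 members without HEL. In the difference of responses and in the receptor comparison with HEL, 0 members passed under each alternative run. The members' median stayed positive in the IgM (0.04 to 0.14), the IgMG (0.16 to 0.33) and the mean response (0.12 to 0.22) and in the difference of responses (0.07 to 0.23), and no value followed here changed sign.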
